A study of Mus musculus with 6 samples.

Results

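Fibroblast growth factor (FGF) genes of the heart were compared between whole hearts of 3 FOG-2R3K5A and 3 WT mouse embryos at embryonic day 16.5. The set holds 10 genes of 18193 on the array, the 7 ligand or FGF-like genes Fgf9, Fgf16, Fgf10, Fgf1, Fgf2, Fgf18 and Fgf12 and the 3 receptor genes Fgfr1, Fgfr2 and Fgfr3. They were chosen by symbol, and 20 probe sets were annotated to exactly 1 of these symbols. Each gene was represented by its probe set of highest mean, taken over all 6 arrays.

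The FOG-2R3K5A embryos carry substitutions in FOG-2, the product of Zfpm2, and the WT embryos do not. FOG-2 partners GATA factors in cardiac transcription, and the substituted stretch is known to bind the NuRD chromatin remodelling complex. Both genotypes came from double heterozygous crosses on a mixed C57/B6, 129 S6 background. The labels give neither the zygosity of the FOG-2R3K5A embryos, nor any Cre driver or other allele, nor whether a replicate was 1 heart or several, so p-values measure the spread between these 6 samples. In whole hearts, fewer cells of a type and less RNA per cell cannot be told apart.

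FGFs are mostly secreted proteins that bind FGF receptor tyrosine kinases together with heparan sulfate. The activated receptors signal through the MAP kinase pathway, which induces its own inhibitors of the Sprouty and Dusp families. In the mouse embryonic heart, FGF9 from the epicardium and endocardium is known to act on FGFR1 and FGFR2 of the myocardium, where it promotes cardiomyocyte proliferation, and to act upstream of hedgehog and VEGF signals in coronary vessel growth.

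Values are log2 of the deposited probe set intensities, and differences are FOG-2R3K5A minus WT. A gene was tested when its mean lay above 6.30, the median of all non-control probe sets (an intensity of 78.9), and was called at a limma adjusted p under 0.05 over all 11113 genes tested. By this rule 7 of the 10 FGF genes were tested, and in each of them both genotypes had means above the level. Fgf16, Fgf10 and Fgf2 lay below it. Levels of different probe sets are not comparable on these arrays, so the genes are not ranked by level.

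Median intensities of the arrays ran from 77.5 to 78.4 in FOG-2R3K5A hearts and from 77.4 to 84.1 in WT hearts. WT replicate 1 correlated with the FOG-2R3K5A arrays at 0.984 to 0.990 and with the other WT arrays at 0.982 to 0.986. The cardiomyocyte markers Tnnt2, Myh6, Actc1, Myl7 and Ryr2 read between 11.14 and 13.64 on all 6 arrays. Scgb3a2, a secretoglobin of lung airways, had values of 9.03, 4.87 and 11.36 in FOG-2R3K5A replicates 1, 2 and 3, against 4.81 to 5.40 in WT hearts. Zfpm2 transcript was higher in FOG-2R3K5A hearts by 0.44 (SE 0.06, limma adjusted p = 0.0134), and 0 of the 10 FGF genes lie on its chromosome.

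Fgf9 fell in FOG-2R3K5A hearts and was the 1 called gene of the 7 tested. Of all genes tested, 1.76% were called in either direction, 1.39% higher and 0.369% lower. Fgf9 encodes a secreted ligand of the epicardium and endocardium. It read 7.50, 7.47 and 7.19 in FOG-2R3K5A replicates 1, 2 and 3, against 7.93, 7.98 and 8.01 in WT replicates 1, 2 and 3. The genotypes did not overlap, and FOG-2R3K5A replicate 3 was the lowest of the 6 arrays. On the linear scale these were intensities of 181, 177 and 146 in FOG-2R3K5A hearts, against 244, 253 and 258 in WT hearts. The means were 7.39 ± 0.17 in FOG-2R3K5A and 7.98 ± 0.04 in WT hearts (SD, n = 3 each). The difference was -0.59 (SE 0.12, 95% interval -0.85 to -0.33), or 1.51-fold lower, with a limma adjusted p of 0.0440.

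The second Fgf9 probe set, 1420795_at, read lower as well. Its values were 6.36, 6.38 and 6.10 in FOG-2R3K5A hearts, against 6.84, 6.99 and 6.63 in WT hearts, again without overlap. The difference was -0.54 (SE 0.15), or 1.45-fold lower in FOG-2R3K5A hearts, where its mean, 6.28, lay at the intensity level. In a test of all 22518 probe sets above the level, the main Fgf9 probe set, 1438718_at, had an adjusted p of 0.0569 and the second 0.158 (limma).

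The Fgf9 call stood close to the threshold. It ended without FOG-2R3K5A replicate 1 (adjusted p = 0.151), without replicate 2 (0.116) or without replicate 3 (0.127), and without WT replicate 2 (0.0972) or WT replicate 3 (0.130). Without WT replicate 1 it held, at an adjusted p of 0.0406. The count called over all genes also changed, from 196 to 37, 84 and 51 without FOG-2R3K5A replicate 1, 2 or 3. It was 451, 92 and 61 without WT replicate 1, 2 or 3. Xist was also added to the model as a covariate, since the labels do not give the embryos' sex. Over all genes 43 were then called, and the Fgf9 difference was -0.48, with a limma adjusted p of 0.193. The difference was negative in all 16 alternative settings tried, from -0.65 to -0.48, and the adjusted p was under 0.05 in 5 of them and ran from 0.0282 to 0.994.

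**Figure D1:**
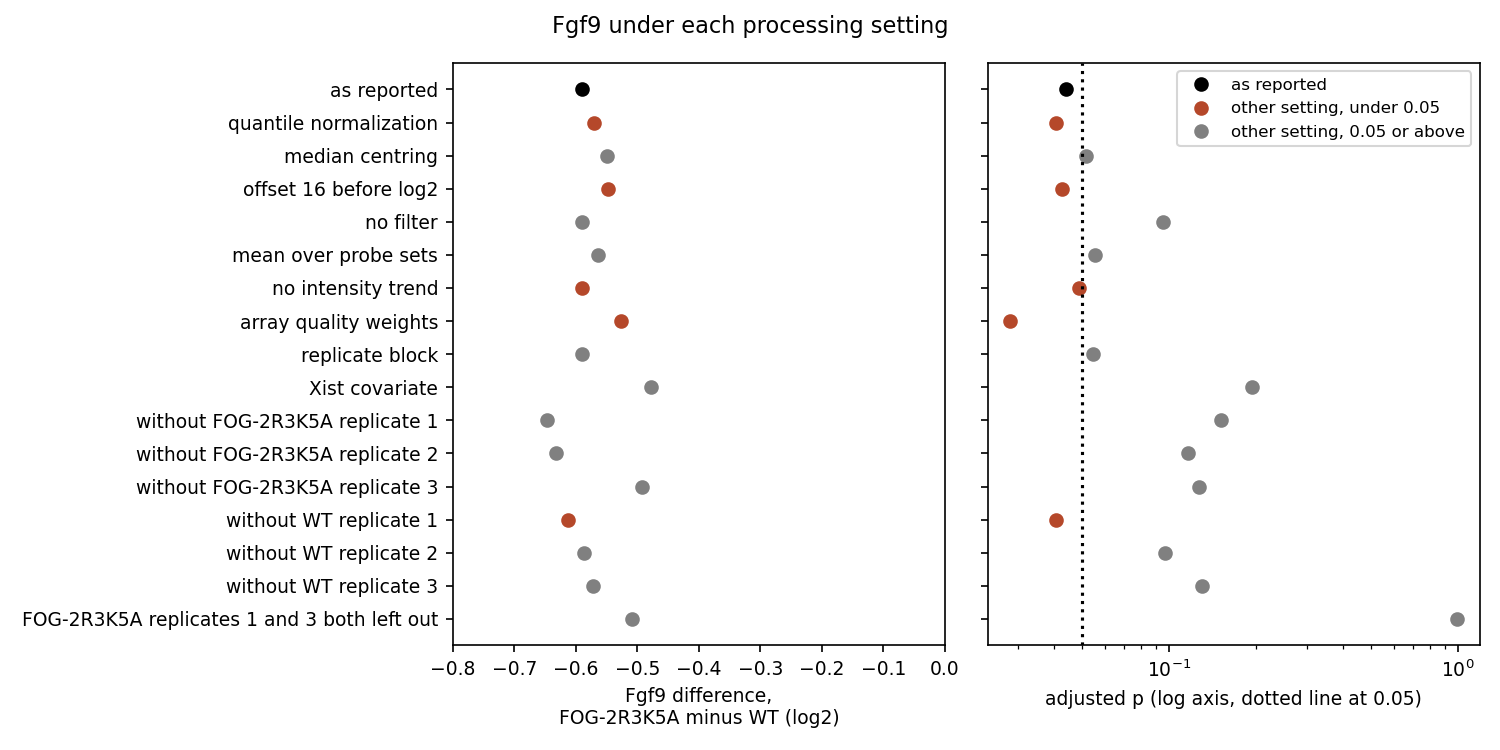
Fgf9 in each processing setting: left, the difference between FOG-2R3K5A and WT hearts (log2), right, the limma adjusted p on a log axis with a dotted line at 0.05. The differences lie between -0.65 and -0.48, while the adjusted p falls on either side of the line.

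FOG-2 acts with GATA factors, so the DNA before the Fgf9 start is shown with the letters those factors are known to bind. AGATAA or AGATAG and TGATAA or TGATAG were searched on both strands in the 250 bases before each gene start of the RefSeq promoter table (GRCm38.p6). Fgf9 lies on the plus strand, and its window is chr14:58072436-58072685. Capitals mark the single match, read on the minus strand, which begins 224 bases before the start.
Fgf9: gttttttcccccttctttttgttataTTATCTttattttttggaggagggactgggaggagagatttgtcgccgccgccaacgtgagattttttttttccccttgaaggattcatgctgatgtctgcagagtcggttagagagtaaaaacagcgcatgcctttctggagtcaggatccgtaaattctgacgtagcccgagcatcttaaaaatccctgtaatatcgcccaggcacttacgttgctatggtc
Such a match was present in 26.5% of the 32851 windows in the table. The search among FGF genes left out 1 chromosome, which the share over all windows included. Fgf1, Fgf16 and Fgfr1 had no window here, because it was left out or because the table held none. Of the 11 windows kept, for 7 of the 10 FGF genes, the Fgf9 window was the 1 with a match. A match describes letters and does not show binding.

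Fgf16, an X-linked ligand closely related to Fgf9 and known from the embryonic heart, lay below the intensity level on every array. It read 4.12, 4.29 and 4.78 in FOG-2R3K5A hearts, against 4.31, 5.13 and 5.05 in WT hearts, and the genotypes overlapped. Fgf20, the other ligand of this subfamily, read between 0 and 0.91 on the 6 arrays. Neither gene was tested, and no difference was detectable at this signal.

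Fgf10, a ligand of the FGFR2 isoform of epithelia that is also known from second heart field progenitors, read 3.96, 3.32 and 3.99 in FOG-2R3K5A hearts, against 4.81, 3.36 and 4.12 in WT hearts. Fgf2, a ligand without a classical signal peptide, read 3.13, 2.99 and 3.26 in FOG-2R3K5A hearts and 2.96, 2.65 and 2.88 in WT hearts. The Fgf10 values overlapped between genotypes and the Fgf2 values did not. At intensities this far below the level neither was tested.

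Fgf1, the other ligand without a classical signal peptide, read higher on every FOG-2R3K5A array but did not pass. Its values were 8.97, 8.97 and 8.75 in FOG-2R3K5A hearts, against 8.58, 8.46 and 8.66 in WT hearts. The difference was 0.33 (SE 0.10, limma adjusted p = 0.167). A second probe set above the level, 1450869_at, gave 0.21 with genotypes that overlapped, and the other, 1441042_at, lay below the level with 0.06.

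Fgf12 encodes an FGF homologous factor, which stays inside the cell and binds voltage-gated sodium channels rather than FGF receptors. It had the largest positive difference among the 7 tested genes, with 9.04, 9.16 and 9.37 in FOG-2R3K5A hearts, against 8.31, 9.04 and 8.62 in WT hearts. The lowest FOG-2R3K5A array and the highest WT array, WT replicate 2, read nearly alike. The difference was 0.54 (SE 0.17, 95% interval 0.15 to 0.92, limma adjusted p = 0.183).

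All 3 Fgf12 probe sets read higher in FOG-2R3K5A hearts and none overlapped between genotypes. The second, 1440270_at, read 7.56, 7.42 and 7.69 in FOG-2R3K5A hearts, against 6.50, 7.18 and 6.89 in WT hearts, a difference of 0.70 (SE 0.17, limma adjusted p = 0.119 over all probe sets). The dimmest, 1436432_at, had means of 6.30 and 5.44 in FOG-2R3K5A and WT hearts, both at or below the level. WT replicate 1 was the lowest array for each of the 3 probe sets, and without it the main difference was 0.37. Without WT replicate 2 it was 0.73, and the adjusted p of the main probe set ran from 0.0525 to 0.999 over the alternative settings. The second probe set was called in 1 of 15 alternative settings, with array quality weights (adjusted p = 0.0464).

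Fgf18, a ligand known mainly from lung and skeleton, read 7.36, 6.99 and 7.25 in FOG-2R3K5A hearts, against 6.77, 7.19 and 7.07 in WT hearts. The genotypes overlapped, and the difference of 0.19 (SE 0.15) did not pass (limma adjusted p = 0.602). Its 95% interval was -0.16 to 0.53.

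**Figure D2:**
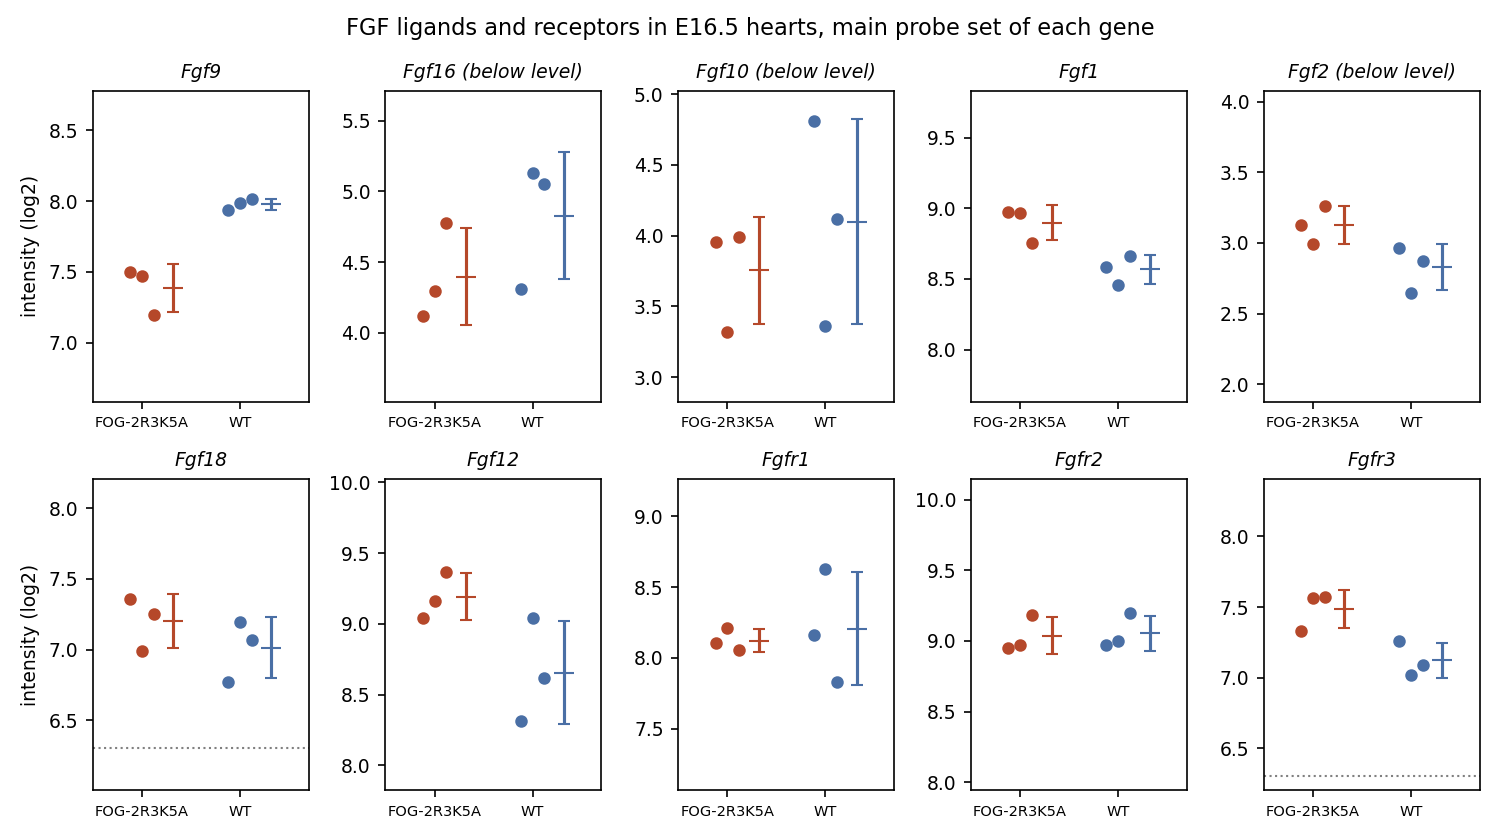
Log2 intensity of the main probe set of each FGF gene, with 1 point per array (3 FOG-2R3K5A, 3 WT), bars giving mean ± SD, and a y axis of the same span in each panel. The dotted line is the intensity level of 6.30 where it falls in the panel. Fgf9 is lower on the 3 FOG-2R3K5A arrays, and Fgf1, Fgf12, Fgfr3 and the dim Fgf2 are higher on them.

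Among the receptors, Fgfr1, the receptor tyrosine kinase of myocardium and mesenchyme, showed no difference beyond the spread. Its main probe set read 8.10, 8.21 and 8.05 in FOG-2R3K5A hearts, against 8.16, 8.63 and 7.83 in WT hearts. The FOG-2R3K5A arrays lay within the WT range. The difference was -0.08 (SE 0.18, 95% interval -0.49 to 0.32, limma adjusted p = 0.858), and it was 0.13 without WT replicate 2, the highest array. The other Fgfr1 probe sets had differences of -0.20 (1425911_a_at) and 0.06 (1436551_at), and WT replicate 2 was also the highest array of the first of these, at 8.22.

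The probe sets of Fgfr2, whose transcripts are known to be spliced into isoforms that bind different ligands, did not move together. The main one, 1420847_a_at, read 8.95, 8.97 and 9.19 in FOG-2R3K5A hearts, against 8.97, 8.997 and 9.20 in WT hearts. Its difference was -0.02 (SE 0.10, 95% interval -0.25 to 0.21, limma adjusted p = 0.953).

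The other Fgfr2 probe set above the level, 1433489_s_at, read 7.99, 8.03 and 8.18 in FOG-2R3K5A hearts, against 7.58, 7.16 and 7.44 in WT hearts, without overlap. Its difference was 0.67 (SE 0.13, 95% interval 0.37 to 0.97), or 1.59-fold, with a limma adjusted p of 0.0559 over all 22518 probe sets. It had the smallest p of the 13 probe sets above the level, and it was called in 4 of 15 alternative settings: quantile normalization (adjusted p = 0.0477), median centring (0.0424), array quality weights (0.0289) and without WT replicate 1 (0.0318). The remaining probe set, 1443211_at, lay below the level in both genotypes, with a difference of 0.08. The annotation used here does not give which Fgfr2 transcripts each probe set reads.

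Fgfr3, a receptor known mainly from cartilage, read 7.33, 7.56 and 7.57 in FOG-2R3K5A hearts, against 7.26, 7.02 and 7.09 in WT hearts. The genotypes did not overlap, with WT replicate 1 nearest to the FOG-2R3K5A arrays. The difference was 0.37 (SE 0.12, 95% interval 0.09 to 0.65) and did not pass (limma adjusted p = 0.210). The second Fgfr3 probe set lay below the level.

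The genotypes did not overlap for 4 of the 7 genes tested, Fgf9 lower and Fgf1, Fgf12 and Fgfr3 higher. The share among all genes tested was 21.2%, with 11.5% higher and 9.76% lower in FOG-2R3K5A hearts. The median difference was 0.19 over the 7 FGF genes and -0.01 over all genes tested. Of their 13 probe sets above the level, limma called 0 over all probe sets, where 0.99% of all probe sets were called. By gene, the unadjusted limma p was under 0.05 for 3 higher and 1 lower of the 7, against 14.7% of all genes tested. At an unadjusted p under 0.05 there were 7 of the 13 probe sets, against 13.8% of all probe sets. Probe sets of the same gene can read the same transcripts, so they are not counted as independent. The genotypes did not overlap for 7 of the 13, against 20.3% of all probe sets.

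**Figure D3:**
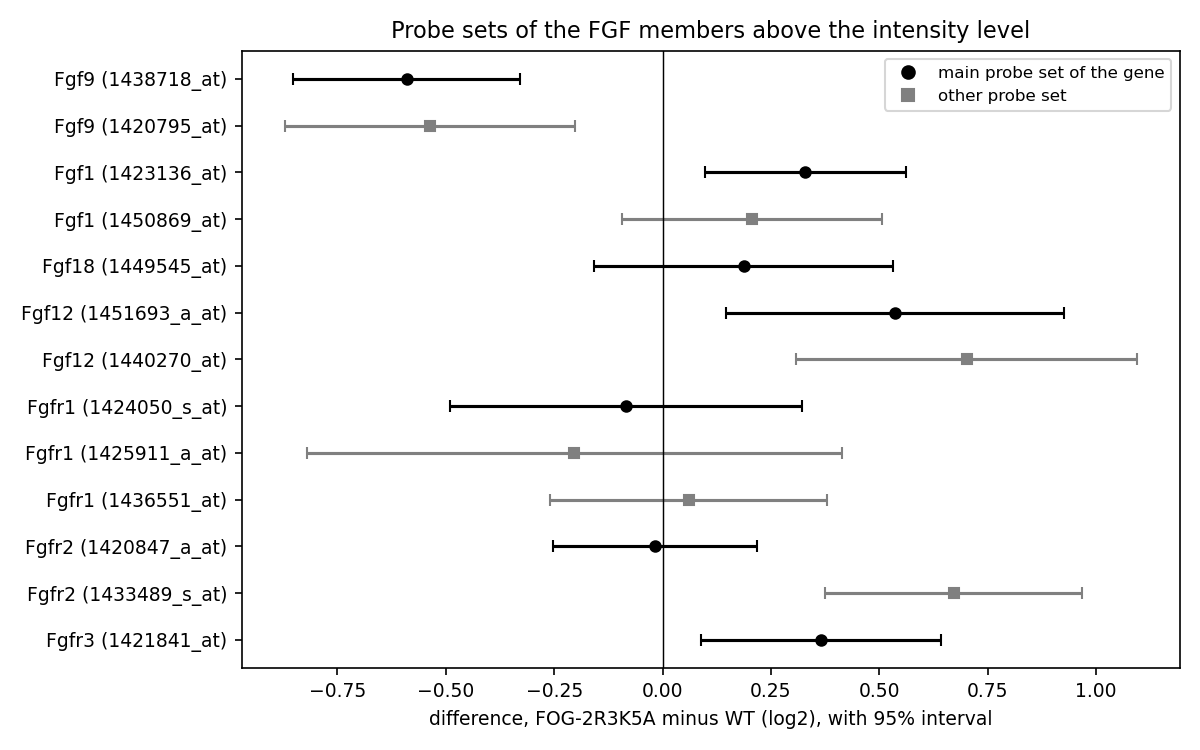
Difference between FOG-2R3K5A and WT hearts (log2) with its 95% interval for the 13 probe sets of the FGF genes above the intensity level, circles for the main probe set of a gene and squares for others. Both Fgf9 probe sets lie below 0, both Fgf12 probe sets lie above it, and the Fgfr2 probe sets lie at -0.02 and 0.67.

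Markers of the cells known to make or receive FGF9, and of other cells, were read on the same arrays. Of 5 cardiomyocyte markers 0 were called, and their summed intensity was 45992 to 46454 in FOG-2R3K5A and 43727 to 44419 in WT hearts. Myh6 (0.11) and Myl7 (0.14) were higher without overlap, while the genotypes overlapped for Tnnt2, Actc1 and Ryr2. Of 8 epicardial markers 5 were called higher, Krt18 by 1.54, Krt8 by 1.42, Msln by 0.98, Krt19 by 0.93 and Upk3b by 0.50. Of all genes tested, 1.39% were called higher and 0.369% lower. The epicardial transcription factors Wt1, Tbx18 and Tcf21 had -0.06, -0.11 and -0.09 and did not pass. The summed intensity of the 8 markers was 6768 to 7224 in FOG-2R3K5A hearts and 5289 to 5567 in WT hearts, while Fgf9 was lower. This sum rose through the 5 called markers and adds nothing separate to them. Of 6 endothelial and endocardial markers 0 passed the limma test, with 1 at an unadjusted p under 0.05, Nfatc1 at 0.29, and their summed intensity was 9129 to 9468 in FOG-2R3K5A and 8579 to 9473 in WT hearts. Of 5 skeletal muscle markers 2 lay above the level. Both fell, Tnni2 by 1.04 (limma adjusted p = 0.0217) and Casq1 by 0.41 (0.0467). The summed intensity of the 5, weighted to the brightest, Casq1, was 1259 to 1528 in FOG-2R3K5A hearts and 1848 to 1931 in WT hearts. Tnnt3 and the myogenic factors Myod1 and Myog were below the level on every array. Their differences were positive, at 0.09, 0.42 and 0.38, and the genotypes overlapped. The part of these cells in the Fgf9 difference was not tested.

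Fgf9, Fgf10, Fgf18, Fgfr2 and Fgfr3 are also known from embryonic lung. Of 7 lung and airway markers 3 had a mean above the level and 0 were called by limma, with Scgb3a2 alone at an unadjusted p under 0.05. Their summed intensity was 704, 212 and 3485 in FOG-2R3K5A replicates 1, 2 and 3, and 211 to 324 in WT hearts. Sftpc, also above the level by its mean, read 6.17, 5.80 and 9.43 in FOG-2R3K5A replicates 1, 2 and 3, against 5.86 to 6.53 in WT hearts. Sftpb, likewise above it, read 6.04, 6.35 and 6.88 in FOG-2R3K5A hearts, against 6.12 to 7.03 in WT hearts. The lung marker Nkx2-1, below the level on every array, read at most 2.07 in FOG-2R3K5A and 2.97 in WT hearts. FOG-2R3K5A replicate 2 had the lung sum of the WT arrays, and against the WT mean it gave a difference of -0.51 for Fgf9, 0.64 for 1433489_s_at of Fgfr2 and 0.44 for Fgfr3. It gave -0.08 for the main Fgfr2 probe set and -0.024 for Fgf18. For Fgf10, below the level, it gave -0.78, against -0.34 over all 3 FOG-2R3K5A arrays. These values rest on 1 FOG-2R3K5A array, picked after the data were seen. The part of lung tissue in the FGF differences was not tested.

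Fgf9 was also compared with every other gene tested by its pattern over the 6 arrays. The 5 genes with the highest Pearson correlation were Septin6 (0.984), Rprd1a (0.984), Hirip3 (0.983), Plcl2 (0.982) and Cachd1 (0.980). Septin6, which encodes a cytoskeletal GTPase, fell by 0.51 (limma adjusted p = 0.0217). The other four had differences from -0.27 to -0.14 and did not pass. With 6 arrays that share a genotype split, 50 of 11112 genes had a correlation above 0.95.

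The rest of the FGF pathway was described by 6 lists with 81 genes, of which 73 had a probe set and 51 lay above the level. By limma 0 of the 51 were called, and 8 had an unadjusted p under 0.05, 6 higher and 2 lower. The background for these counts was 1.76% called and 14.7% at an unadjusted p under 0.05. The median difference was -0.02 over the 51 genes. Negative differences made up 29 of the 51 and 5867 of all 11113 genes tested. The genotypes did not overlap for 4 higher and 4 lower genes of the 51, against 21.2% of all genes tested. Flrt3 was called with array quality weights (adjusted p = 0.0471) and without WT replicate 1 (0.0384), and it was the 1 pathway gene called in any setting.

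Of 15 other ligand genes only Fgf13 and Fgf23 lay above the level. Fgf13, another FGF homologous factor that binds sodium channels, was bright, at 11.07, 11.04 and 10.97 in FOG-2R3K5A hearts, against 11.15, 11.43 and 11.09 in WT hearts. Its difference was -0.20 (SE 0.09, limma adjusted p = 0.348), opposite in sign to Fgf12, and its second probe set gave -0.47, with WT replicate 2 far above the other arrays. Fgf14, also of this family, lay below the level on FOG-2R3K5A arrays, at 5.57, 5.93 and 5.83, and just above it on WT arrays, at 6.40, 6.37 and 6.33. Its mean did not exceed the level, so it was not tested.

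Among receptors and extracellular partners, Flrt3 had the largest difference. Flrt3 encodes a transmembrane protein that binds FGF receptors and is known from the epicardium of the mouse heart. It read 8.88, 8.73 and 8.39 in FOG-2R3K5A hearts, against 8.52, 7.81 and 8.02 in WT hearts, and the genotypes overlapped through WT replicate 1. The difference was 0.55 (SE 0.19, limma adjusted p = 0.210), and the second probe set gave 0.60 without overlap. Fgfbp3, which releases FGFs from matrix, had 0.26. Flrt2 had 0.12, with other probe sets at 0.15 and 0.33, and Fgfrl1, a receptor without a kinase domain, -0.13, with another probe set at 0.0054. Fgfr4 lay below the level.

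Of 11 heparan sulfate genes tested, 7 had positive and 4 negative differences. Sulf2, a sulfatase that trims heparan sulfate, had 0.23 (SE 0.08, limma adjusted p = 0.206), while its other probe sets above the level gave 0.05 and -0.02. Ext2, of the chain polymerase, had 0.27, Hs6st1 0.17 and Hs3st1, a sulfotransferase, -0.35, all 3 without overlap between genotypes. The main Sulf2 probe set did not overlap either, and the share among all genes tested was 21.2%. The core protein Hspg2 (perlecan) had -0.00136, while its other probe set gave -0.40, and the genotypes overlapped in both.

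In the intracellular relay from receptor to MAP kinase, 13 genes were tested, 10 with negative differences, and the genotypes overlapped for all of them. The differences ran from -0.24 to 0.16. The smallest p values belonged to Plcg1 at -0.23, Frs3 at -0.20, Gab2 at 0.16 and Braf at 0.10, with limma adjusted p from 0.386 upward, while another Gab2 probe set gave -0.12 and other Braf probe sets ran from -0.06 to 0.11.

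Feedback inhibitors and targets are induced by FGF signalling and are often read as its output. Of 12 tested, 7 had positive and 5 negative differences, with a median of 0.10. Dusp6, a phosphatase of ERK, read 10.04, 9.87 and 9.88 in FOG-2R3K5A hearts, against 9.88, 9.55 and 9.60 in WT hearts. Its difference was 0.25 (SE 0.10, limma adjusted p = 0.290), with WT replicate 1 inside the FOG-2R3K5A range. Dusp5 had 0.48, Spred1 0.19 and Spry4 0.32, although another Spry4 probe set gave -0.10 and other Spred1 probe sets ran from -0.16 to 0.33. Spry1 had -0.21 and Spry2 -0.06.

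Hedgehog and VEGF genes act in coronary vessel growth downstream of FGF in the mouse heart. Differences were negative in 8 of 9 tested genes, with a median of -0.11. By limma 0 of the 9 were called, and 5867 of all 11113 genes tested had negative differences. Gli2, a transcription factor of hedgehog signalling, read 8.37, 8.54 and 8.39 in FOG-2R3K5A hearts, against 8.62, 8.76 and 8.79 in WT hearts. The genotypes did not overlap, and the difference was -0.29 (SE 0.10, limma adjusted p = 0.195). Gli3 had -0.21, with another probe set at -0.07, and the ligand Shh, near the intensity level, -0.30. The receptor Ptch1, a direct target of the pathway, had -0.04 (95% interval -0.22 to 0.14), and Gli1 lay below the level. Vegfa had -0.09, with another probe set at -0.15, and Angpt2 was the 1 gene with a positive main probe set, at 0.23. Vegfc had -0.10, with other probe sets at 0.01 and 0.11, and Smo -0.11, with another at 0.09.

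**Figure D4:**
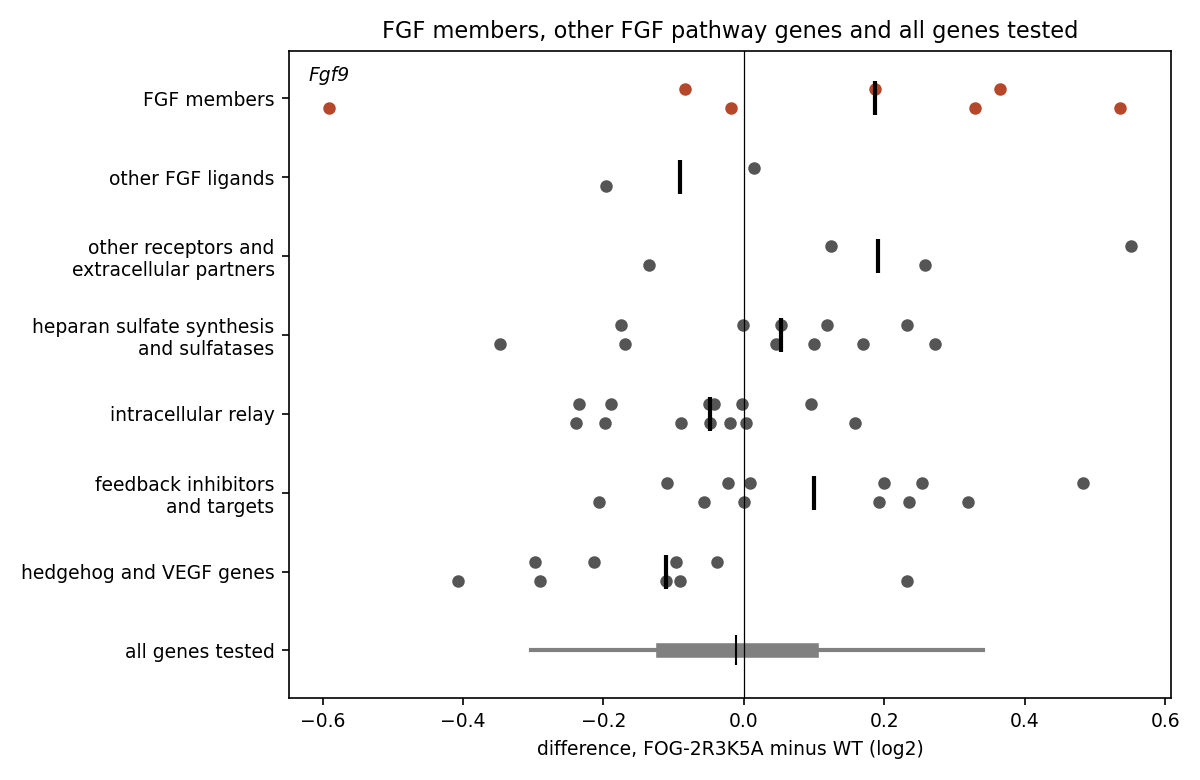
Difference between FOG-2R3K5A and WT hearts (log2) of each gene tested in the FGF set and in the 6 lists of other FGF pathway genes, with a black tick at the median of each row. The bottom row gives all 11113 genes tested, the thick bar covering the 25th to 75th percentile (-0.12 to 0.10) and the thin one the 5th to 95th (-0.30 to 0.34); Fgf9, Fgf12 and Fgfr3 are the FGF genes outside the thin one.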

How the data were processed

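Total RNA of whole hearts was labelled with biotin and hybridised to 1-colour Affymetrix mouse arrays, per the labels' protocols. The authors deposited 1 linear intensity per probe set and array. How they normalized these, and with which software, is not given in the sources used here. The array medians lay within 0.12 log2 units, so no further normalization was applied.

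The deposited intensities were floored at 1 before the log2 was taken. Probe sets with 1 symbol in the platform annotation (34945 of 45101) were used. Genotypes were compared in limma 3.58.1 (R 4.3.3) by lmFit and eBayes with an intensity trend. Tests were two-sided and Benjamini-Hochberg adjustment covered all genes tested. Probe sets were fitted in the same way over all above the level. The fit was tested on simulated data. The 6 pathway lists and the cardiomyocyte, epicardial, endothelial, skeletal muscle and lung markers were chosen, like the FGF genes, with earlier results of these data known, and 1 alternative, without FOG-2R3K5A replicates 1 and 3, after seeing the data. The text names all 10 FGF genes and, of each list, up to 4 tested genes with the smallest p. Others named (Fgf14, Fgf20, Fgfr4, Gli1, Hspg2, Ptch1, Smo, Spry1, Spry2, Vegfa and Vegfc) were chosen for their role or their probe sets after their values were seen. Deviations of samples sharing a replicate number correlated at -0.06, 0.13 and 0.41 between genotypes, and those of samples with different numbers at -0.32 to 0.25. The numbers were not treated as pairs in the main fit, and a fit with them as a block is given below. With 3 arrays a genotype, precision is limited by their number. Figures were drawn with matplotlib 3.10.9.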

Additional observations from a re-analysis of the deposited data

How the results depend on the processing

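The fall of Fgf9 kept its direction in all 16 alternatives and its call in 5. The call was lost with median centring (-0.55, adjusted p = 0.0514), without the filter (-0.59, 0.0957), with the mean over probe sets (-0.56, 0.0556), with the Xist covariate (-0.48, 0.193) and without FOG-2R3K5A replicates 1 and 3 together (-0.51, 0.994), which leaves 1 FOG-2R3K5A array that is assumed to vary like the WT arrays. With the replicate number as a block it was also lost (-0.59, 0.0545), and samples that share a number share only that. The cause of these losses was not tested. Leaving out 1 array gave -0.65 to -0.49. The number of FGF genes called was 0 in these settings, and from 0 to 1 without 1 array. The number of pathway genes called was 1 with array quality weights and 0 to 1 without 1 array. The number of FGF probe sets called was 0, but 1 with quantile normalization or median centring, 3 with array quality weights and 0 to 1 without 1 array.

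Signs turned for 4 FGF genes. Fgfr1 had 0.034 with array quality weights, 0.00157 without FOG-2R3K5A replicates 1 and 3 and -0.27 to 0.13 without 1 array. Fgfr2 had 0.024 with median centring, 0.25 with the mean over probe sets and -0.093 to 0.053 without 1 array. Fgf18 had -0.024 without FOG-2R3K5A replicates 1 and 3, against 0.19. The dim, untested Fgf10 had 0.016 without WT replicate 1, against -0.34. Fgf1, Fgf12 and Fgfr3 stayed positive in all 16 and were called in 0, and Fgfr3 was below the level and untested with the mean over probe sets. Over all genes, 196 were called, and 5 to 451 in the alternatives.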
